A study of Solanum pimpinellifolium with 6 samples.

Results

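The stay-green genes described here are 2 of the 34723 tomato genes with values in the deposited table, Solyc12g056480 and Solyc08g080090. They were taken by identifier, and the table describes them as a senescence-inducible chloroplast stay-green protein and as stay-green protein 2. They were chosen with the results of this same comparison known, so their own levels are given as a description, with no test. RNA sequencing was done on fruits 2 days post anthesis (dpa), set by hand pollination on plants aged 2 months of the wild currant tomato Solanum pimpinellifolium, strain LA1589. The 3 control libraries came from nontransgenic siblings, labelled wild type, and the other 3 from transgenic RNAi line 207, a line made to silence the zinc finger gene SlZFP2. Line 207 was picked for profiling, per the series' design text, because fruit set and the making of abscisic acid (ABA), a dormancy and stress hormone, are disturbed in it. All 6 libraries share strain, age and stage. Line 207 is 1 transgenic line, and the promoter that drives its silencing construct is not given in the sources used here. Whether the replicates came from separate plants is not stated beyond the words biological replicates. A p-value here therefore sets the group difference against the spread between these libraries, and does not cover other plants or lines.

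Stay-green proteins act at the start of chlorophyll breakdown. In Arabidopsis and other plants they remove the magnesium ion from chlorophyll a, which yields pheophytin and allows the light-harvesting complexes to be dismantled. Pheophytin then loses its phytol tail, pheophorbide a oxygenase opens the ring, and red chlorophyll catabolite reductase completes the step that makes colourless products. Solyc08g080090 is the tomato gene known as SGR1 or GREEN-FLESH, and mutants of it keep chlorophyll in the ripe fruit. A fruit at 2 dpa is normally a green, dividing organ, long before ripening.

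The libraries have limits that bear on every value below. The values were read as FPKM, a level scaled by gene length and library depth. Depth relative to sibling replicate 1, taken from the steps between low values, was lowest at 0.386, in line 207 replicate 1. The RNAi target SlZFP2 (Solyc07g053570) had 2.89, 3.05 and 0.00147 FPKM in the sibling libraries, against 10.3, 9.03 and 7.45 FPKM in the line 207 libraries. That order is opposite to what silencing would give. The values are low, however, and the difference was not called (limma adjusted p = 0.112), so whether the target was silenced cannot be told from them. The groups are therefore called the libraries labelled sibling and labelled line 207, and each direction is a direction between labels. One protocol label names shoot tips, while the sample labels name fruits. The carpel identity gene TAG1 (Solyc02g071730) was present in every library, at 16.7 to 24.4 FPKM in labelled sibling and 60.6 to 90.6 FPKM in labelled line 207. It was called higher in labelled line 207 (limma adjusted p = 0.00877). The carpel genes Solyc11g028020 and CRABS CLAW (Solyc01g010240) were at or near 0 in 5 of the 6 libraries, with 5.33 and 3.05 FPKM in sibling replicate 3. The meristem gene TKN2 (Solyc02g081120) reached 5.84 FPKM at most. A WUSCHEL-related gene (Solyc02g083950) was listed at 0 in 5 of the 6. Summed over the 4 carpel genes, the level was 21.9 to 63.7 FPKM in the sibling libraries and 90.6 to 135 FPKM in the line 207 libraries. Most of this sum was TAG1 and TAGL1 (Solyc07g055920), and TAGL1 was near 0 in 1 library of each group. The part of these levels in the results below was not tested. The table is of whole tissue, in which fewer cells of a type and less RNA per cell cannot be told apart.

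SGR1 (Solyc08g080090) had levels of 8.28, 15.8 and 31.7 FPKM in sibling replicates 1 to 3. In line 207 replicates 1 to 3 it had levels of 139, 110.4 and 107 FPKM. Every line 207 library lay above every sibling library, and the lowest line 207 value was 3.36 times the highest sibling value. Group means were 119 ± 18.0 FPKM (SD, n = 3) in labelled line 207 and 18.6 ± 11.95 FPKM (SD, n = 3) in labelled sibling, a ratio of 6.4. On the log2(FPKM + 1) scale the difference was 2.79, with an SD of 0.21 in labelled line 207 and 0.91 in labelled sibling (n = 3). The sibling libraries were the more scattered, with a 3.83-fold range against 1.31-fold in labelled line 207.

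Solyc12g056480 was listed at 0 in sibling replicate 1 and was at 1.83 and 4.998 FPKM in sibling replicates 2 and 3. In line 207 replicates 1 to 3 it was at 53.8, 71.4 and 89.4 FPKM. The groups were again apart, and the lowest line 207 value was 10.8 times the highest sibling value. On the log2(FPKM + 1) scale the difference was 4.79 ± 0.65 (SE), a size that depends on the 1 added before the logarithm because the sibling values are low. No ratio of means is given for this gene, since 1 sibling library is listed at 0. For both genes the 3 line 207 libraries alone were enough to pass the filter of at least 1 FPKM in 3 libraries, so passing it carries no information. Over the 15766 genes that passed, line 207 lay wholly above sibling for 15.6%, a background from which nothing is read here because the pair was chosen on this contrast.

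**Figure D1:**
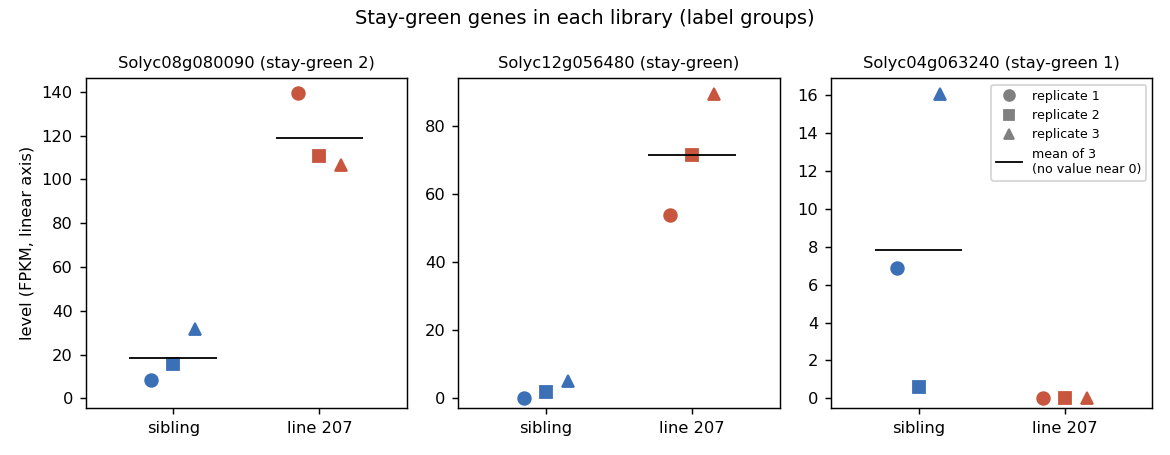
Level of the 3 genes described as stay-green proteins in each library (FPKM on linear axes that differ between panels), with a symbol for each replicate and a line at the mean of 3 where no value is near 0. Solyc08g080090 and Solyc12g056480 are higher in every library labelled line 207 (lowest 107 and 53.8 FPKM) than in any labelled sibling (highest 31.7 and 4.998 FPKM), and Solyc04g063240 is near 0 in labelled line 207.

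Among the genes that passed the filter, SGR1 stood mid-ranking in labelled sibling and near the top in labelled line 207. In the sibling libraries 41.8%, 58.9% and 75.5% of the tested genes had a lower level per length. In the line 207 libraries the share was 94.7%, 92.3% and 92.8%. Solyc12g056480 stood above 0%, 15.3% and 29.9% of the tested genes in the sibling libraries and above 85.3%, 88.3% and 91.3% in the line 207 libraries. A ranking within a library does not depend on how the libraries were scaled against each other.

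The balance between the pair also differed by label. Per unit length, Solyc12g056480 stood at 0, 0.116 and 0.158 of the SGR1 level in sibling replicates 1 to 3. In line 207 replicates 1 to 3 its level was 0.386, 0.646 and 0.839 of that of SGR1. SGR1 was therefore the higher of the pair in all 6 libraries, and the gap was smallest in line 207 replicate 3. Within labelled line 207 the pair ran in opposite order, with SGR1 highest and Solyc12g056480 lowest in replicate 1. Paralogs can share reads in such estimates, so the split between them is less certain than their sum.

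Another gene, Solyc04g063240, is described as stay-green protein 1 and is no member of the pair. It was at 6.86, 0.593 and 16.1 FPKM in sibling replicates 1 to 3 and at 0.00179 FPKM or less in each line 207 library. It lay in the opposite direction to the pair, although it missed the filter and was not tested, and its q in the authors' deposited table is 1, their mark for a gene without a test. In estimates without read counts, its values near 0 do not show that it was not expressed in those libraries. The 3 genes summed to 15.1, 18.2 and 52.8 FPKM in sibling replicates 1 to 3. In line 207 replicates 1 to 3 the sum was 193, 182 and 196 FPKM. Of the sum, Solyc04g063240 made up 45.3%, 3.26% and 30.5% in the sibling libraries and under 0.001% in each line 207 library, where Solyc12g056480 made up 27.8%, 39.3% and 45.6%.

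**Figure D2:**
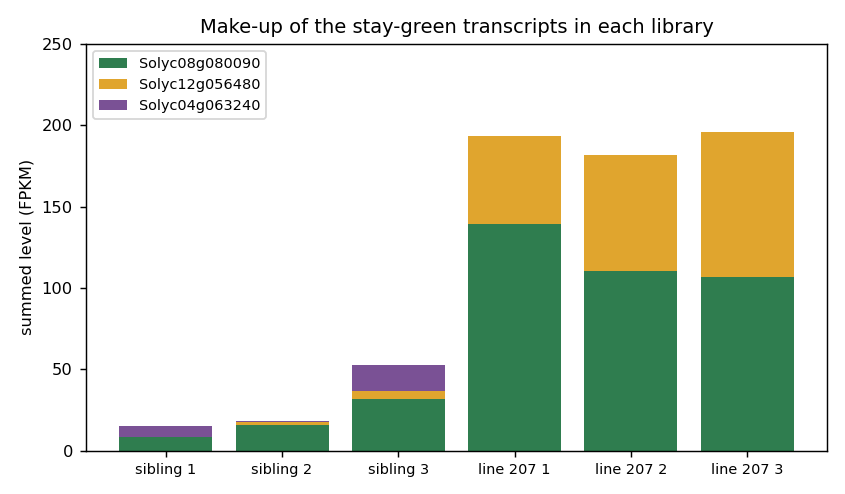
Summed level of the 3 stay-green genes in each library (FPKM, linear axis from 0), with each gene's part of the bar in its own colour. The line 207 bars reach 182 to 196 FPKM and hold almost no Solyc04g063240, while the sibling bars reach 15.1 to 52.8 FPKM.

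Of the other genes of chlorophyll breakdown, 1 pheophorbide a oxygenase gene (Solyc11g066440) was higher by label, and it was the only tested gene of the list called higher. The list, matched by words in the deposited descriptions, held 12 genes beside the pair, of which 2 were at 0 in every library and 9 were tested. In limma, 1 was called higher and 2 lower at a Benjamini-Hochberg adjusted p of 0.05, where 5.01% of all tested genes were called higher and 5.04% lower. A count of 1 higher is no result about the list. With any 1 library left out, 1 gene stayed called higher and 0 or 1 lower. The median log2 difference of the 9 was -0.67, against -0.09 over all tested genes. At an unadjusted p of 0.05 in limma 1 was higher and 4 lower (12.1% and 14.1% of all tested genes). By the authors' deposited q it was 1 and 2 (12.8% and 15.6%). The groups were apart for 1 higher and 4 lower (15.6% and 17.6%). Both genes called lower at the adjusted p are chlorophyllide a oxygenases, which make chlorophyll b and entered the list through the name of a shared protein domain. Without them the list holds 7 tested genes with 1 higher and none lower in limma (2 lower at an unadjusted p of 0.05, which 12.1% of all tested genes pass as higher and 14.1% as lower, and 2 lower by the authors' deposited q, which over all 9583 genes with a p below 1 calls 12.8% higher and 15.6% lower), a split made after the data were seen.

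The pheophorbide a oxygenase gene Solyc11g066440, for the ring-opening enzyme, was at 53.0, 61.6 and 80.3 FPKM in sibling replicates 1 to 3. It was at 214, 190.3 and 178 FPKM in line 207 replicates 1 to 3. The groups did not overlap, and the lowest line 207 value was 2.21 times the highest sibling value. Means were 194 ± 18.3 against 65.0 ± 14.0 FPKM (SD, n = 3), a ratio of 2.99 (log2 difference 1.58, SE 0.19, adjusted p = 0.00619 in limma). The call held whichever library was left out (limma adjusted p up to 0.0304), and the authors' deposited q is 0.000439. Its replicates followed those of SGR1, with sibling replicate 1 lowest, sibling replicate 3 highest of the siblings and line 207 replicate 1 highest of all. That order of the siblings was found in 2 of the 9 tested breakdown genes, this gene and Solyc12g096550, against 19.6% of all tested genes. Other tested genes of the oxygenase family did not share the higher level in labelled line 207. Solyc12g096550 averaged 29.7 ± 2.48 FPKM in line 207 and 37.3 ± 8.50 FPKM in sibling libraries (SD, n = 3) and its groups overlapped (limma adjusted p = 0.457). Solyc04g040160 was at 0.629, 15.5 and 3.93 FPKM in the sibling libraries and at 3.37 FPKM or less in the line 207 libraries (limma adjusted p = 0.364).

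The reductase that follows ring opening and the chlorophyllases gave no call in limma. The list holds no gene described as cutting the phytol tail from pheophytin, so the step just before ring opening was not examined. The red chlorophyll catabolite reductase gene Solyc03g044470, which acts directly after the oxygenase, was at 39.0, 53.9 and 31.3 FPKM in the sibling libraries and at 27.2, 23.4 and 24.8 FPKM in the line 207 libraries. Its groups were apart in the direction opposite to the oxygenase, as for 17.6% of all tested genes, with means of 41.4 ± 11.5 and 25.1 ± 1.96 FPKM (SD, n = 3), but the difference did not pass (limma adjusted p = 0.142). Its q in the authors' deposited table is 0.0464. Chlorophyllases can cut the phytol tail from chlorophyll. The chlorophyllase gene Solyc12g005300 was at 93.5, 68.2 and 56.9 FPKM in labelled sibling and at 39.1, 44.6 and 14.1 FPKM in labelled line 207 (limma adjusted p = 0.123, authors' deposited q 0.00942). Solyc06g053980, also a chlorophyllase gene, averaged 19.7 ± 4.15 against 12.1 ± 9.25 FPKM (SD, n = 3) with overlapping groups (limma adjusted p = 0.37). The chlorophyllase gene Solyc09g065620 was listed at 0 in sibling replicate 2 and lay between 8.88 and 13.3 FPKM in the other 5 libraries (limma adjusted p = 0.523).

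**Figure D3:**
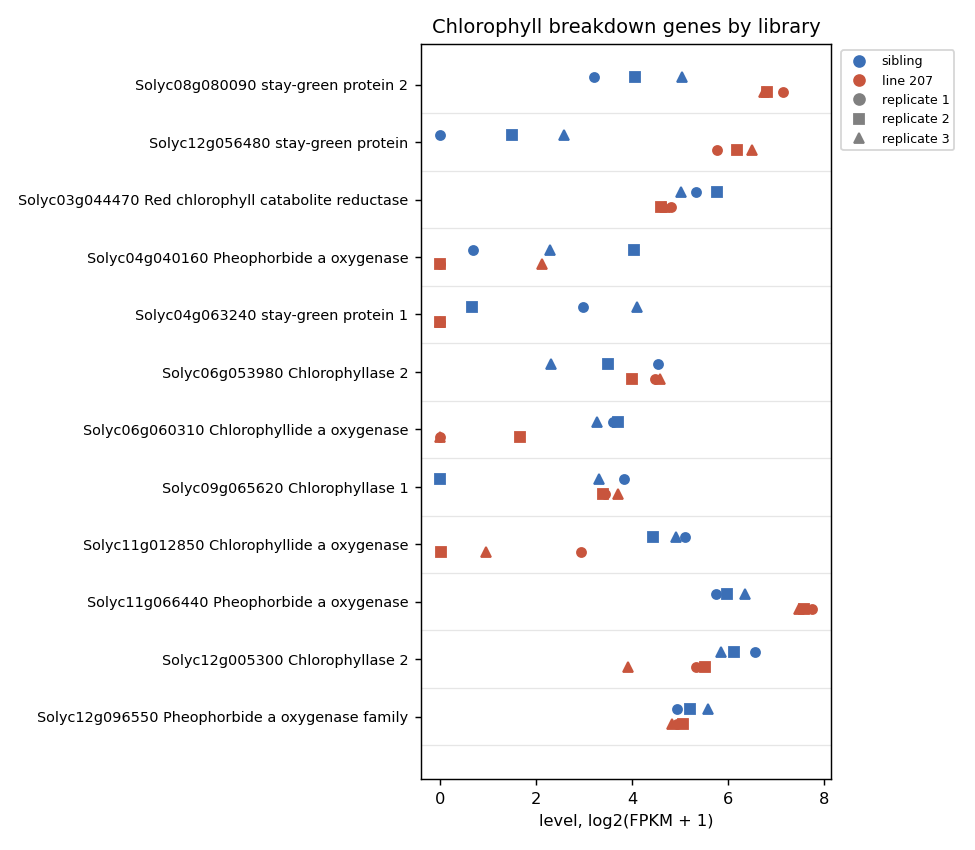
Levels of the stay-green pair and of the 10 other chlorophyll breakdown genes with a value above 0, on the log2(FPKM + 1) scale, with a colour for each label group and a symbol for each replicate. The pair and the pheophorbide a oxygenase gene Solyc11g066440 lie higher in every line 207 library than in any sibling library, and Solyc04g063240, both chlorophyllide a oxygenase genes, Solyc03g044470 and Solyc12g005300 lie lower.

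Chlorophyll synthesis and the antenna proteins lay in the opposite direction to the stay-green pair. Of 32 synthesis genes matched by description, 25 were tested, and 7 were lower and none higher in labelled line 207 (limma), where 5.04% of all tested genes were lower and 5.01% higher. At an unadjusted p of 0.05 in limma 12 were lower and 0 higher, against 14.1% and 12.1% of all tested genes, and by the authors' deposited q also 12 and 0, against 15.6% and 12.8%. Their median log2 difference was -1.12. The gene for the H subunit of magnesium chelatase (Solyc04g015750), the enzyme that inserts the magnesium that stay-green proteins remove, was at 98.2, 97.1 and 115 FPKM in labelled sibling. In labelled line 207 it was at 11.7, 4.25 and 5.63 FPKM, which is 14.4-fold lower by means (log2 difference -3.77, SE 0.35, adjusted p = 0.00297 in limma). The geranylgeranyl reductase gene Solyc03g115980, which supplies the phytol tail, was 6.95-fold lower, at 31.0 ± 6.87 against 215 ± 85.2 FPKM (SD, n = 3; limma adjusted p = 0.00481). Both calls held whichever library was left out, but the number of synthesis genes called fell to 4 without any 1 sibling library or line 207 replicate 2, to 3 without line 207 replicate 1 and to 2 without line 207 replicate 3. It was also 4 with 0.1 FPKM added before the logarithm and with no filter on low values. Leave-out fits also have fewer samples.

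The chlorophyllide a oxygenase gene Solyc11g012850 was at 33.1, 20.6 and 29.2 FPKM in labelled sibling and at 6.72, 0.0206 and 0.964 FPKM in labelled line 207 (limma adjusted p = 0.0324). Solyc06g060310, also a chlorophyllide a oxygenase gene, was at 11.2, 12.1 and 8.72 FPKM in labelled sibling and at 2.21 FPKM in 1 line 207 library and near 0 in the others (limma adjusted p = 0.029). Each kept its call in 1 of the 6 fits that leave out a library, Solyc11g012850 without line 207 replicate 1 and Solyc06g060310 without line 207 replicate 2 (limma adjusted p up to 0.0925 and 0.0974). Neither was called with 0.1 FPKM added or with no filter, and the authors' deposited q passes for neither, at 0.113 and 0.207. Of 29 tested antenna genes, whose proteins hold the chlorophyll that is broken down, 25 were lower and none higher in limma, against 5.04% and 5.01% of all tested genes, with a median log2 difference of -3.17. At an unadjusted p of 0.05 in limma 28 were lower and 0 higher (14.1% and 12.1% of all tested genes), and by the authors' deposited q 25 and 0 (15.6% and 12.8%).

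Among the siblings, replicate 1 also stood apart from the other libraries along these lines. Sibling replicate 1 had the lowest levels of both stay-green genes, and it had the highest summed antenna level, at 24911.3 FPKM against 14721.5 and 14340.5 FPKM in replicates 2 and 3. Its summed synthesis level was 2151 FPKM against 896 and 1040.2 FPKM. All line 207 libraries lay below these, at 2243 to 4129 FPKM for the antenna sum and 476 to 520.2 FPKM for the synthesis sum. The inverse order did not hold throughout. Line 207 replicate 1 had the highest of both sums in its group, with SGR1 at its highest and Solyc12g056480 at its lowest. From sibling replicate 2 to 3, SGR1 rose from 15.8 to 31.7 FPKM, while the antenna sums were close and the synthesis sum rose. Both stay-green genes were lowest in sibling replicate 1 and highest in sibling replicate 3, an order shared by 19.6% of all tested genes. The pollen gene LAT52 (Solyc10g007270) was also lower in sibling replicate 1, at 7.58 FPKM against 37.2 and 39.4 FPKM in the other siblings and 6.71 to 8.24 FPKM in labelled line 207, and its part in these differences was not tested. Without sibling replicate 1 the log2 difference of SGR1 was 2.35 and that of Solyc12g056480 was 4.11.

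**Figure D4:**
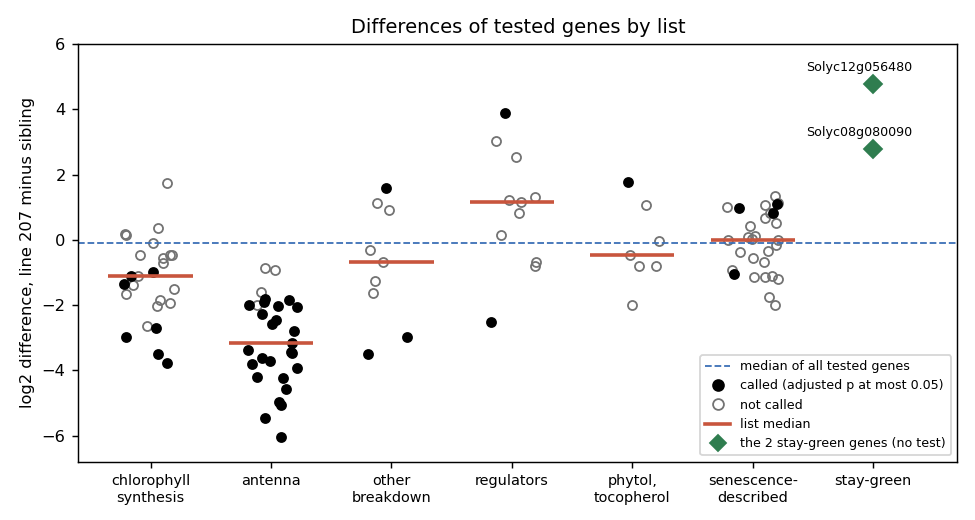
Log2 difference between labelled line 207 and labelled sibling, on the log2(FPKM + 1) scale, for each tested gene of 6 lists, with filled points for genes called in limma, a bar at each list median and a dashed line at the median of all tested genes (-0.09). The antenna list (median -3.17) and the synthesis list (median -1.12) lie below the dashed line, and the stay-green pair, shown with no test, lies at 2.79 and 4.79.

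Transcription factors known to act on chlorophyll loss or on chloroplast development were read from a list of 16 identifiers, which also holds PSY1, whose enzyme the SGR1 protein binds in tomato. Of these, 1 was at 0 in every library and 11 were tested, with 1 higher and 1 lower in limma. Over all tested genes the shares were 5.01% and 5.04%, so a count of 1 in 11 each way is near the background, and the calls below stand for those single genes and not for the list. At an unadjusted p of 0.05 in limma 6 were higher and 1 lower (12.1% and 14.1% of all tested genes), as by the authors' deposited q (12.8% and 15.6%). The median log2 difference of the 11 was 1.16, and without sibling replicate 1, 4 were higher (limma).

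The gene called higher was NAP1 (Solyc05g007770), a NAC factor related to the Arabidopsis senescence factor NAP. It was at 8.53, 23.9 and 67.0 FPKM in sibling replicates 1 to 3 and at 367, 382 and 369 FPKM in line 207 replicates 1 to 3. Its groups were widely apart, and the line 207 libraries differed by only 1.04-fold. The means were 372 ± 8.07 and 33.1 ± 30.3 FPKM (SD, n = 3), a ratio of 11.2 (log2 difference 3.88, SE 0.63, adjusted p = 0.0137 in limma). It missed the threshold without line 207 replicate 2 (limma adjusted p = 0.0518) and with no filter on low values (0.0508). NAP2 (Solyc04g005610), which in tomato binds the promoters of SGR1 and of the pheophorbide a oxygenase gene, was at 3.52, 46.0 and 74.2 FPKM in labelled sibling and at 204, 216 and 195 FPKM in labelled line 207. Its groups did not overlap, but the sibling spread was 21.1-fold and the difference did not pass (log2 difference 3.03, SE 0.96, adjusted p = 0.0959 in limma). NAP2 has a q of 0.000439 in the authors' deposited table.

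The ORE1-type NAC factors are relatives of the Arabidopsis senescence factor ORE1. ORE1S02 (Solyc02g088180) was at 6.86, 51.3 and 42.5 FPKM in labelled sibling and at 136, 176 and 147 FPKM in labelled line 207, with the groups apart (limma adjusted p = 0.0605). ORE1S03 (Solyc03g115850) averaged 18.2 ± 6.96 against 7.42 ± 2.07 FPKM (SD, n = 3; limma adjusted p = 0.122), and ORE1S06 (Solyc06g069710) stayed at 2.04 FPKM or below. The ABA-responsive factor AREB1 (Solyc04g078840) averaged 25.3 ± 8.66 against 9.39 ± 2.91 FPKM (SD, n = 3) and did not pass (limma adjusted p = 0.0809). Sibling replicate 1, the library with the lowest stay-green levels, had the lowest value of the 6 libraries for 6 of the 11 tested regulators. These were NAP1, NAP2, ORE1S02, ORE1S03, AREB1 and FUL2. The share over all tested genes was 17.7%. All but FUL2, however, lay wholly above sibling in labelled line 207, so their lowest library had to be a sibling. That share is therefore no matched background, and nothing is read from the count. The full sibling order of the stay-green pair was found in 3 of the 11, against 19.6% of all tested genes, and APRR2 had its highest sibling value in replicate 1.

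GLK1 (Solyc07g053630), a factor that promotes chloroplast development, was the gene called lower. It was at 29.9, 23.6 and 34.9 FPKM in labelled sibling and at 2.72, 4.70 and 5.92 FPKM in labelled line 207, which is 6.63-fold lower by means (log2 difference -2.51, SE 0.37, adjusted p = 0.00963 in limma). The call held whichever library was left out (limma adjusted p up to 0.0412). Its relative GLK2 (Solyc10g008160), which acts in tomato fruit, was at 9.32, 8.85 and 2.95 FPKM in labelled sibling and at 0, 13.1 and 6.03 FPKM in labelled line 207 (limma adjusted p = 0.721). APRR2 (Solyc08g077230), a regulator of pigment in green fruit, averaged 33.3 ± 6.22 against 14.1 ± 5.71 FPKM (SD, n = 3; limma adjusted p = 0.0611), and HY5 (Solyc08g061130), of the light response, had overlapping groups (limma adjusted p = 0.459).

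Among factors of fruit ripening, a stage at which SGR1 is active in tomato, FUL2 was abundant in both groups, while RIN and NOR had no values above near 0. RIN (Solyc05g012020) was at or near 0 in all 6 libraries, and NOR (Solyc10g006880) was listed at 0 in all of them, which in estimates without read counts does not show that they are not expressed. FUL2 (Solyc03g114830) averaged 121 ± 5.50 against 111 ± 25.1 FPKM (SD, n = 3; limma adjusted p = 0.68). FUL1 (Solyc06g069430) was at 44.7 and 24.1 FPKM in line 207 replicates 2 and 3 and at 0.0572 FPKM or less in the other 4 libraries. TAGL1 (Solyc07g055920) was near 0 in 1 library of each group and between 28.2 and 72.0 FPKM in the rest (limma adjusted p = 0.833). The PSY1 gene (Solyc03g031860), for the fruit phytoene synthase, was at 3.06 FPKM in sibling replicate 3 and at 0.167 FPKM or less elsewhere.

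**Figure D5:**
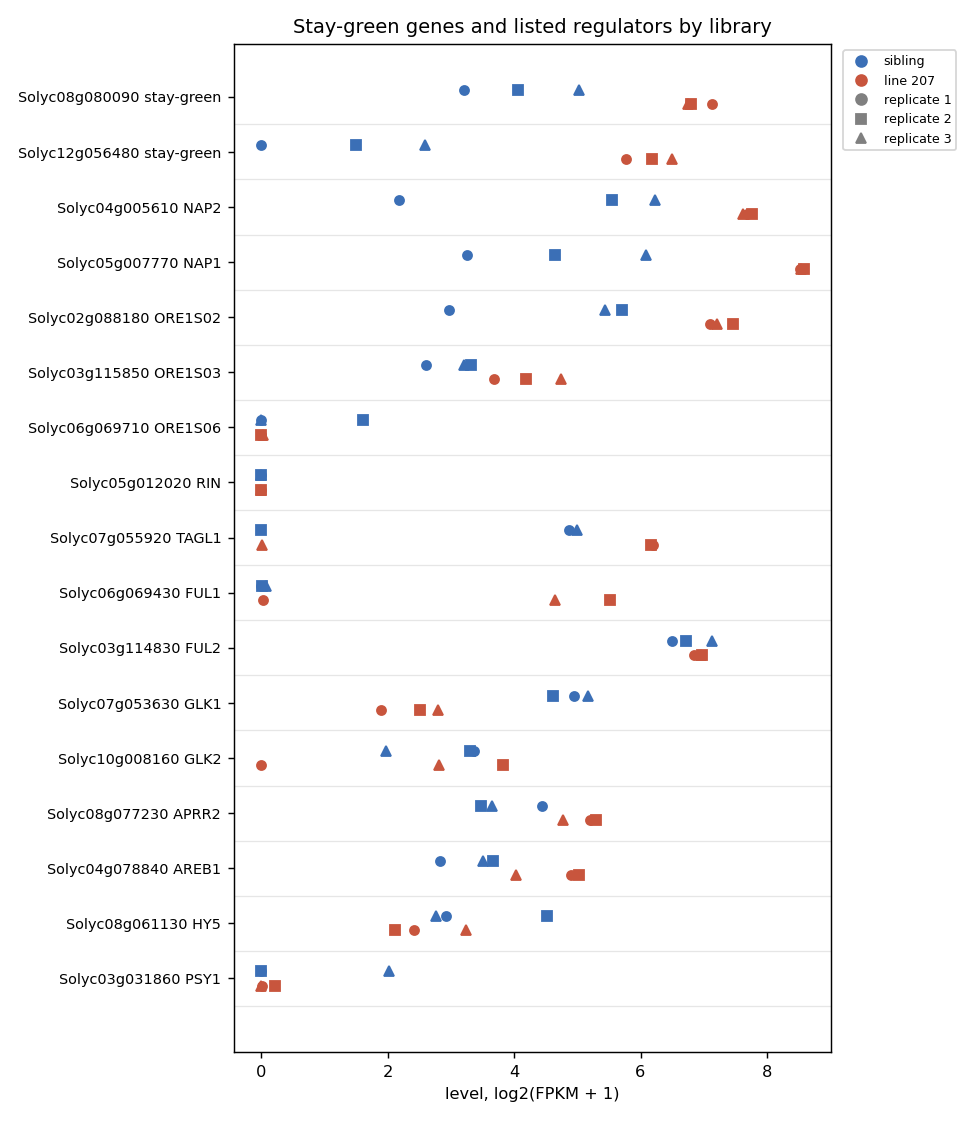
Levels of the stay-green pair and of 15 listed regulators or partners in each library, on the log2(FPKM + 1) scale, with a colour for each label group and a symbol for each replicate. Like SGR1, NAP1, NAP2 and ORE1S02 have sibling replicate 1 lowest and the line 207 libraries close together at the top. Their order within labelled line 207 differs from that of SGR1, and GLK1 lies lower in labelled line 207.

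Phytol released from chlorophyll can be reused for tocopherol (vitamin E). Of 7 tested genes of phytol use and tocopherol synthesis, 1 was higher and none lower in limma, where 5.01% of all tested genes were higher and 5.04% lower, and the median log2 difference was -0.45. At an unadjusted p of 0.05 in limma 1 was higher and 1 lower (12.1% and 14.1% of all tested genes), and by the authors' deposited q 1 and 0 (12.8% and 15.6%). A count of 1 is no result about the list. The higher gene, Solyc05g041200, codes for 4-hydroxyphenylpyruvate dioxygenase, which makes the head group of tocopherol. It was at 14.7, 33.2 and 32.5 FPKM in labelled sibling and at 80.5, 93.3 and 90.2 FPKM in labelled line 207 (log2 difference 1.76, SE 0.32, adjusted p = 0.0193 in limma), with no overlap. The call was lost when any of the line 207 replicates was left out (limma adjusted p up to 0.0679) and with no filter on low values (0.0547).

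Genes described with the word senescence, other than the stay-green genes, showed no common direction. Of 42, 29 were tested, with 3 higher and 1 lower in limma and a median log2 difference of 0.01. These counts are near the 5.01% and 5.04% of all tested genes. At an unadjusted p of 0.05 in limma 4 were higher and 3 lower (12.1% and 14.1% of all tested genes), and by the authors' deposited q 4 and 2 (12.8% and 15.6%). Solyc06g075360 averaged 103 ± 13.4 against 57.0 ± 5.83 FPKM (SD, n = 3; limma adjusted p = 0.0289), Solyc04g049080 44.6 ± 11.1 against 20.0 ± 1.23 FPKM (limma adjusted p = 0.0331) and Solyc07g054160 45.8 ± 6.20 against 23.0 ± 3.60 FPKM (limma adjusted p = 0.0359). The lower gene, Solyc04g074100, averaged 31.5 ± 4.36 against 66.5 ± 13.5 FPKM (limma adjusted p = 0.0305). Each of these 4 calls was lost in at least 5 of the 6 fits that leave out a library, and 0 or 1 remained in each direction (limma).

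The genes whose levels ran most like each member were taken by Pearson's r on log2(FPKM + 1) over the 6 libraries, a description with no test, in which all points share the same libraries and label groups. For SGR1 the closest of the 15765 other tested genes were Solyc02g063170 of unknown function (r = 0.998), the nodulin MtN21 family gene Solyc02g087060 (0.998), the cytochrome P450 gene Solyc07g014670 (0.997), NAP1 (0.996) and the ubiquitin-conjugating enzyme gene Solyc06g070980 (0.995). The MtN21 family gene was at 21.8, 40.3 and 68.0 FPKM in labelled sibling and at 191, 175 and 169 FPKM in labelled line 207. It was picked by its r with SGR1, so sharing that gene's order of libraries is no further result. For Solyc12g056480 the closest were the peroxidase gene Solyc04g071900 (r = 0.999), the wound-responsive gene Solyc07g054730 (0.999), the glucosyltransferase gene Solyc01g107820 (0.998), the acetyl esterase gene Solyc05g009610 (0.998) and the phosphatase gene Solyc07g062970 (0.998). The glucosyltransferase gene was at 7.08, 13.5 and 20.3 FPKM in labelled sibling and at 76.5, 108 and 109 FPKM in labelled line 207, an order shared with its member through the same picking. The members' r with each other was 0.985, which placed Solyc12g056480 at rank 65 for SGR1 and SGR1 at rank 100 for Solyc12g056480.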

How the data were processed

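RNA of 6 libraries was measured, 3 per label group, with groups and replicate numbers from the sample titles. The single table that the authors deposited lists each gene's level in each library. The levels are treated as FPKM, since they are fractional, their totals differ, and the submitters' processing notes name TopHat 1.3.2 and Cufflinks. The deposited p-value and q-value of the authors' own test are also listed, set to 1 for an untested gene. Genome build, annotation release and scaling: not given in the sources used here. Of 34727 rows, 4 held no values. Read depth per library is unknown, and whole reads could not be recovered from model estimates, so only a relative depth was derived.

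The test was limma (version 3.58.1, R version 4.3.3), fitted to log2(FPKM + 1) with a prior following the mean level, over the 15766 genes at 1 FPKM or more in at least 3 libraries. P-values were Benjamini-Hochberg adjusted over all of these and called at 0.05. The log2(FPKM + 1) scale understates changes of low genes. The script was tested on simulated data.

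The members and gene lists were chosen with earlier results of these data known. Lists were matched by words in the deposited descriptions or, for regulators and markers, by identifiers whose symbols come from the literature and not from the table. The synthesis and breakdown lists share 2 genes. Named are the members, every breakdown or regulator gene above 0 in any library, up to 4 genes with the smallest p in each other list, marker genes, and the 5 genes most like each member, some of them only within a count. NOR, at 0 throughout, was named outside this rule. The supplied RefSeq gene table matched 0 identifiers, so no coordinates or sequences are given. The replicate numbers did not pair the libraries. Alternatives tried were other pseudocounts, filters and scalings, the authors' q-values, the replicate block, and each library left out.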

Additional observations from a re-analysis of the deposited data

How the results depend on the processing

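The log2 difference of SGR1 ranged from 2.35 to 3.25 with each library left out, and that of Solyc12g056480 from 4.11 to 5.4, or 6.14 and 2.73 with 0.1 or 10 FPKM added before the logarithm. The replicate numbers did not pair the libraries (correlation of deviations 0.004, -0.008 and -0.011, and 0 of 6 libraries correlated best with their own number). With the replicate block, 486 genes were higher and 408 lower over all genes, and 1 breakdown gene lower, 4 synthesis genes lower and 0 senescence-described genes higher. The authors' deposited q gives 1226 higher and 1496 lower, 12 synthesis genes lower, 2 senescence-described genes lower and 6 regulators higher. With 0.1 FPKM added, 0 breakdown and 4 synthesis genes were lower, and with 10 FPKM added 3 regulators were higher. Without a filter, 0 breakdown and 4 synthesis genes were lower, 0 phytol genes and 0 regulators higher. At a mean of at least 10 FPKM, 1 breakdown gene was lower and 3 regulators higher. Without the chlorophyllide a oxygenase genes, 0 breakdown genes were lower. With each library left out, 259 to 685 genes were higher and 246 to 509 lower, against 790 and 795. Lower were 0 to 1 breakdown, 2 to 4 synthesis, 22 to 24 antenna and 0 to 1 senescence-described genes. Higher were 0 to 1 phytol genes, 0 to 4 regulators and 0 to 1 senescence-described genes. Uncalled genes changed sign among these fits: Solyc09g065620 ranged from -0.057 (without sibling replicate 2) to 1.86, TAGL1 from -0.81 (without sibling replicate 2, and -0.20 and -0.19 without line 207 replicates 1 and 2) to 2.89, GLK2 from -1.48 to 0.43 (without line 207 replicate 1) and TKN2 from -1.29 to 0.020 (without line 207 replicate 2). Beyond fewer libraries or genes where a setting removes them, the cause was not tested. The shallower line 207 libraries limit low values most.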
